A study of Mus musculus with 12 samples.

Results

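Early neural stem cells (NSC) were compared with neural progenitor cells of glial character (NPC) by RNA sequencing, 3 libraries against 3, which makes up 6 of the 12 libraries of the series. The comparison was set by the labels of the samples and covers every gene expressed in them. Both kinds of cell came from mouse embryonic stem cells that carry GFP in place of 1 allele of *Sox1*, with C57BL/6 given as the strain. NSC are neuroepithelial cells taken without sorting, which the paper obtained by a week of neural induction of the stem cells. NPC are glial progenitors labelled as *Sox1* negative and expanded on laminin with bFGF and EGF. For its transcriptomes of NPC with and without *Sox1* induction, the paper states that cells were sorted. The authors worked with clonal NPC lines that carry dCas9-VP64, and their general statement on replication names different days and different clonal lines. Which line gave which baseline library is not given in the sources used here. The RNA was isolated with PicoPure and amplified with SMART-Seq.

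Neuroepithelial cells are the earliest cells of the neural lineage. They express *Sox1* and divide as a polarized epithelium before radial glia and neurons arise from them. Progenitors expanded with FGF and EGF resemble later, glia-forming stages, so the comparison spans both a change of stage and a change of culture.

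Counts from the deposited table were scaled to the size of each library (CPM), with TMM for single genes and by the plain total for sums over a list, and values of the 3 replicates are given in order throughout. The NPC libraries held 18351483, 7434718 and 4939268 counts and the NSC libraries 43095688, 29046205 and 31298912. More genes had a count in NSC (26002, 23650 and 24938) than in NPC (20949, 18426 and 17607). A gene was taken to be at the floor of a group when each library of the group held at most 3 counts of it. These 3 counts correspond to 0.408 CPM in NPC and 0.0874 CPM in NSC on average, so a weak transcript was more easily seen in NSC. Where a group held no count at all, the fold change is given as a lower bound with 3 counts set for each of its libraries. This bound uses the mean of the other group, so a single library of that group can lie below it. Where a group was at the floor with some counts, a ratio is given with a 95% interval. This ratio compares the counts summed over each group, divided by the summed TMM-scaled library sizes. Bounds and intervals cover counting error only.

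NSC replicate 2 stood apart from the other NSC libraries, and NPC varied less by most measures. Biological variation as estimated by edgeR amounted to 8.17% within NPC and 18.4% within NSC. Correlations of log2 CPM were 0.9955 between NSC replicates 1 and 3 but 0.9838 and 0.9844 with replicate 2, while the NPC pairs, at lower depth, gave 0.9892, 0.9869 and 0.9844. Among genes with a mean log2 CPM above 5, a range over 2-fold within the group was found for 6 of 6451 genes in NPC and 132 of 6561 in NSC. NSC replicate 2 was set against the mean log2 CPM of the other NSC libraries. It was more than 2-fold above this mean in 29 of these genes and more than 2-fold below it in 63. In NPC, the 6 genes with the widest range were *Fmnl3*, *Slc27a1*, *Anp32a*, *Tstd2*, *Mcc* and *Cotl1*, and in each of them replicate 1 differed from the other libraries, as in *Slc27a1* with 92.2, 237 and 241 CPM.

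In NSC, *Acta2* and *Tagln*, which encode contractile proteins of smooth muscle, were highest in replicate 2 (143, 880 and 141 CPM for *Acta2*; 43.4, 243 and 40.6 CPM for *Tagln*). The matrix genes *Col6a3* (131, 7.7 and 86.4 CPM) and *Postn* (173, 30.6 and 190 CPM) were lowest there. *Col1a1* (1084, 381 and 1080 CPM) and *Col3a1* (1517, 381 and 1479 CPM) were also lowest in replicate 2. Not all matrix genes were, as *Sparc* was highest there (540, 648 and 532 CPM). All of these genes were nonetheless higher in each NSC library than in any NPC library. The counts of 4 Y-linked genes (*Kdm5d*, *Eif2s3y*, *Uty* and *Ddx3y*) summed to 858, 53 and 506 in NSC and to 3, 1 and 1 in NPC. In the sorted neural rosette cells of the series they summed to 481, 42 and 731, with replicate 2 again the lowest. *Gm47283*, also assigned to chromosome Y, had 108, 14.6 and 121 CPM in NSC against 10.1, 12 and 7.72 CPM in NPC. *Xist*, transcribed from the inactive X chromosome, was lower in all NSC libraries (15.4, 11.1 and 14.6 CPM) than in the NPC libraries (166, 149 and 149 CPM), with a log2 fold change of -3.49 ± 0.16 (standard error of the model; adjusted p 3.93e-10, edgeR quasi-likelihood test, Benjamini-Hochberg). What set replicate 2 apart, and whether the cultures differed in sex or in chromosome loss, was not tested. Without this library *Fabp7*, *Vim*, *Cd68*, *Tet2* and *Tet3* no longer passed the test described below and *Cdkn1a* and *Anp32a* did, and in each list of genes examined the number of higher or lower members moved by at most 2.

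**Figure D1:**
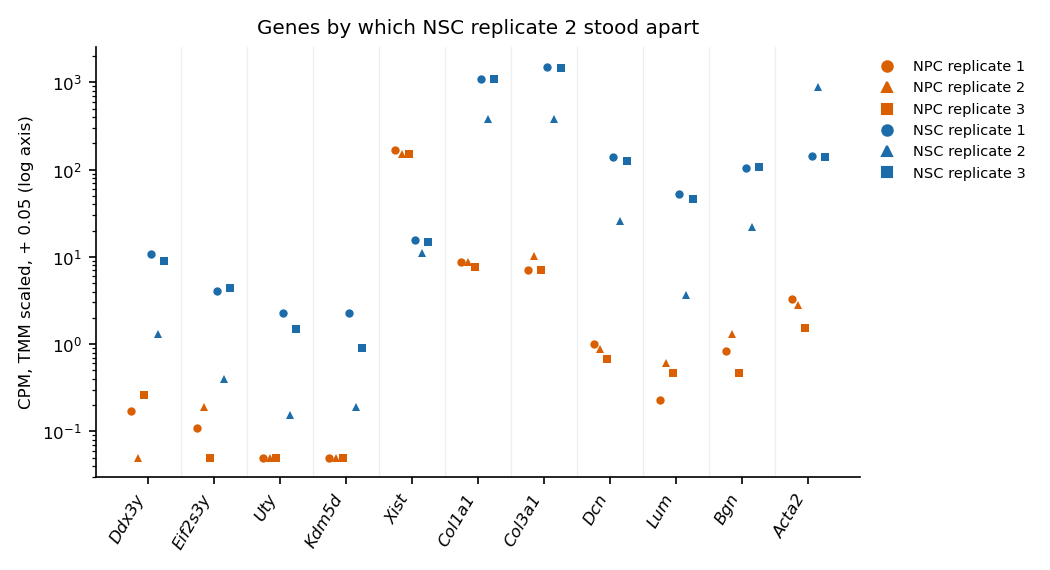
Expression of Y-linked genes, *Xist*, matrix genes and *Acta2* (vertical axis, TMM-scaled CPM plus 0.05 on a log scale) in each NPC and NSC library. Triangles mark replicate 2, which in NSC was lowest for *Col1a1* at 381 CPM and highest for *Acta2* at 880 CPM.

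Of the 45706 genes of the table, 17003 had enough counts to be tested. With the edgeR quasi-likelihood test and a p under 0.1 after Benjamini-Hochberg adjustment, which is called passing here, 7546 genes (44.4%) were higher in NSC and 5737 (33.7%) lower, while 3720 (21.9%) did not pass. These p-values rest on the spread among replicates, estimated over the 12 libraries of the series, and hold for these samples only. At the thresholds used in the paper, which add p under 0.05 and a fold change over 4, 3252 genes (19.1%) were higher and 1002 (5.89%) lower in NSC. The NSC values did not overlap the NPC values in 3187 and 983 of these genes, respectively. Over all tested genes the median log2 fold change was 0.20, or 0.08 when genes at the floor of a group were set at the bound that 3 counts allow. Without NSC replicate 2 the counts were 3326 and 1004, with 3178 and 940 genes shared with the full comparison.

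How far the rises outnumbered the falls depended on weakly expressed genes. NPC were at the floor in 1830 (56.3%) of the 3252 higher genes, of which 606 had no NPC count at all, while NSC were at the floor in 82 (8.18%) of the 1002 lower genes. When a fold change over 4 was required against the floor itself, 2183 genes were higher and 988 lower. Among genes with at least 10 counts in all 6 libraries the numbers were 544 and 574, and among genes with a mean log2 CPM above 5 they were 178 and 229. With all libraries thinned to the same total of 3407066 counts, 1964 genes were higher and 750 lower. The genes higher in NSC held 9.31, 8.89 and 9.35% of the NSC counts and 0.723, 0.813 and 0.789% of the NPC counts. The genes lower in NSC held 13.5, 13.2 and 13.2% of the NPC counts and 2.34, 2 and 2.07% of the NSC counts. Without *Lars2*, *Gm23935*, *Gm15564* and *Gm24270*, loci whose reads may come from elsewhere and which were set aside after seeing the data, the falls held 10.8, 11 and 11% of the NPC counts and 1.59, 1.54 and 1.58% of the NSC counts. The rises were thus the larger part by number of genes, and the falls by share of the RNA, though by a small margin without these loci.

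**Figure D2:**
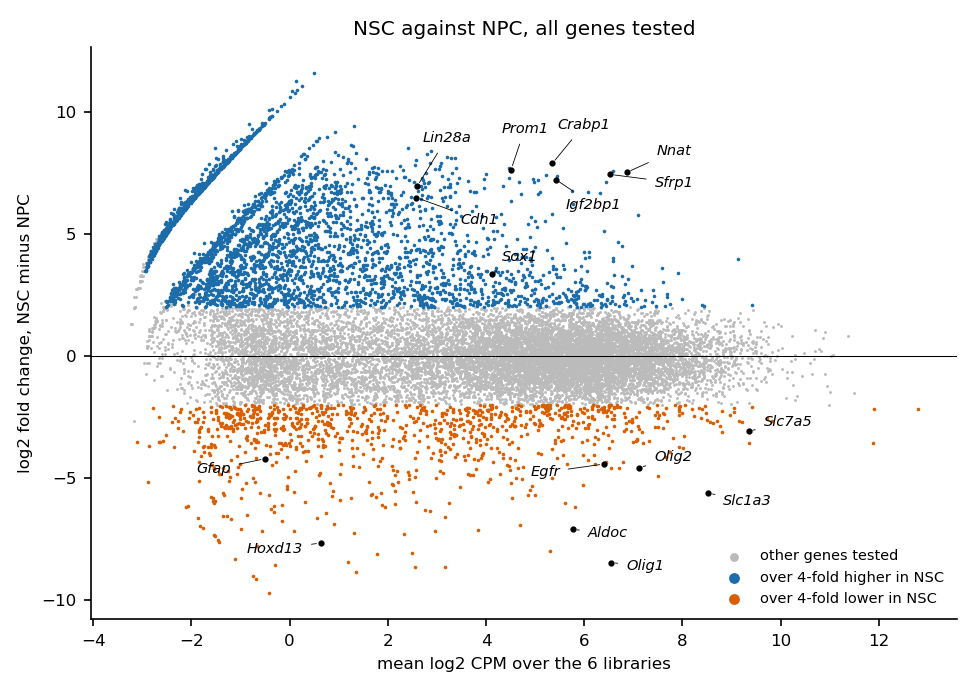
Log2 fold change of NSC over NPC (vertical axis) against the mean log2 CPM over the 6 libraries (horizontal axis) for the 17003 tested genes, with the 3252 genes over 4-fold higher in NSC in blue and the 1002 over 4-fold lower in orange. Most blue points lie at low means, whereas strong falls such as *Olig1* and *Slc1a3* reach high means.

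To see which functions the change touched, 32 lists of genes were examined, each described by the number of its members that passed and by its median log2 fold change, to be read beside the 44.4% higher, 33.7% lower and median of 0.20 of all genes. A gene nearly absent from NPC was tested only where NSC or another group of the series expressed it, so the direction of such members is in part set by the filter. Members with too few counts to be tested are named as examples only. Tested members named below were taken by a rule, which like the lists was chosen with earlier results of these data known. It took the strongest changes and the most abundant gene of each list (CPM per kb of exon, averaged over both groups). It also took the strongest changes among all genes and a set of marker genes. Several others, namely *Slc1a3*, *Nfia*, *Nfib*, *Col1a1*, *Col3a1*, *Krt8*, *Stmn2*, *Neurog1*, *Sox21*, *Hoxa5*, *Hoxb1*, *Shh*, *Gli1*, *Id4*, *Dll1*, *Sfrp1*, *Spry4*, *H2-K1*, *Dnmt1*, *Igf2bp2*, *Mki67*, *Eno1*, *Slc2a1*, *Slc7a5*, *Asns*, *Atf3*, *Ddit3*, *Slc7a11*, *Gja1*, *Aldh1l1*, *Cnp*, *Dusp4*, *Dusp6*, *Rpl39l* and the Y-linked genes, were chosen after their values were seen.

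Factors of neuroepithelium were mostly higher in NSC. Of 15 tested, 12 were higher and 2 lower, with a median log2 fold change of 2.42, and their summed level was 739, 901 and 858 CPM in NPC and 2851, 2505 and 2871 CPM in NSC. *Sox1* itself had 4.83, 6 and 5.43 CPM in NPC and 48.6, 64.9 and 51.8 CPM in NSC. It was thus low but present in NPC and higher in every NSC library (log2 fold change 3.37 ± 0.41; adjusted p 4.65e-06, edgeR quasi-likelihood test, Benjamini-Hochberg). *Prom1*, which encodes a protein of apical membranes, rose from 1.13, 1.81 and 2.09 CPM to 286, 297 and 312 CPM. This was a log2 fold change of 7.64 ± 0.29, and *Dach1* rose by 7.28 ± 0.37, with no overlap between the groups for either gene. The intermediate filament gene *Nes* (75.5, 101 and 93.9 CPM in NPC; 564, 421 and 452 CPM in NSC) and the cadherin gene *Cdh2* (74.7, 68.4 and 61.6 CPM; 501, 627 and 528 CPM) were strongly expressed in both groups and higher in NSC by 2.42 ± 0.30 and 3.01 ± 0.26. *Pax6*, a regulator of dorsal forebrain and spinal progenitors, changed less, from 58, 60.5 and 55.7 CPM to 115, 99 and 127 CPM (log2 fold change 0.97 ± 0.20).

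*Sox2*, the most abundant gene of this list per kb in NPC, did not follow the rise. It had 254, 308 and 291 CPM in NPC and 185, 156 and 179 CPM in NSC. All NSC values lay below all NPC values, and the log2 fold change was -0.72 ± 0.10 (adjusted p 1.24e-05, edgeR quasi-likelihood test, Benjamini-Hochberg). The Notch effector *Hes1* also fell slightly, by 0.36 ± 0.08, whereas *Sox21* rose from 61.6, 72.4 and 67.6 CPM to 447, 376 and 464 CPM.

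Genes expressed in early development and silenced later had the highest median of the 32 lists. All 13 such timing genes were higher in NSC, 11 of them over 4-fold, with a median log2 fold change of 6.61 and summed levels of 165, 168 and 187 CPM in NPC and 2415, 2855 and 2396 CPM in NSC. *Lin28a*, which encodes an inhibitor of let-7 maturation, was nearly absent from NPC (0.537, 0.558 and 0.417 CPM) and had 52.6, 104 and 40.4 CPM in NSC. Its log2 fold change was 6.96 ± 0.43 and that of its paralogue *Lin28b* 8.04 ± 0.41 (adjusted p 5.26e-09 and 8.59e-10, edgeR quasi-likelihood test, Benjamini-Hochberg). *Igf2bp1*, for an RNA-binding protein of fetal tissue, rose from 3.34, 3.91 and 3.13 CPM to 477, 650 and 436 CPM, and *Igf2bp2* from 21.1, 18.7 and 21.5 CPM to 468, 554 and 515 CPM. *Mycn* was the most abundant per kb, at 7.64, 7.25 and 8.14 CPM in NPC and 249, 369 and 254 CPM in NSC. In each of these genes the lowest NSC value was far above the highest NPC value, and without NSC replicate 2 the median of the list was 6.45.

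Genes of radial glia and astrocytes moved the other way, though not as a block. Of 23 tested, 15 were lower and 5 higher in NSC, with a median of -2.40 and summed levels of 7981, 8178 and 7976 CPM in NPC and 2383, 2105 and 2344 CPM in NSC. *Aldoc*, for an aldolase of astrocytes, fell from 640, 641 and 638 CPM to 5.01, 3.9 and 4.82 CPM. The glutamate transporter gene *Slc1a3* fell from 2774, 2571 and 2468 CPM to 53.9, 49.4 and 54 CPM. NPC thus held by far the higher levels of both genes, and the log2 fold changes were -7.12 ± 0.11 and -5.63 ± 0.11 (adjusted p 2.96e-14 and 1.74e-13, edgeR quasi-likelihood test, Benjamini-Hochberg). *S100b* fell by 5.84 ± 0.27. The gliogenic factors *Nfia* (258, 263 and 261 CPM in NPC; 30.9, 14.3 and 27.2 CPM in NSC) and *Nfib* (573, 533 and 552 CPM; 28.8, 7.73 and 32.6 CPM) also fell (log2 fold changes -3.43 ± 0.26 and -4.58 ± 0.51), with replicate 2 the lowest NSC library.

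Some progenitor markers, unlike *Nes* and *Cdh2* above, separated the groups weakly or not at all. *Fabp7*, the most abundant glial gene of the list per kb, had 814, 687 and 729 CPM in NPC and 592, 306 and 562 CPM in NSC (log2 fold change -0.61 ± 0.26; adjusted p 0.0489, edgeR quasi-likelihood test, Benjamini-Hochberg). Without NSC replicate 2 the log2 fold change was -0.38 (adjusted p 0.156, same test). *Vim* had 728, 661 and 675 CPM in NPC and 783, 1081 and 786 CPM in NSC, and rose by 0.36 ± 0.15, with NSC replicate 2 well above the other libraries, and did not pass without it. *Sox9* (201, 241 and 262 CPM in NPC; 195, 119 and 187 CPM in NSC) did not pass, although its NSC values lay below its NPC values. Among mature markers, *Gfap* was low even in NPC (3.04, 2.23 and 1.46 CPM) and lower in NSC (0.134, 0.104 and 0.122 CPM), and *Aqp4* was at the floor in NPC, with 1, 0 and 0 counts against 120, 53 and 94 in NSC. The ratio for *Aqp4* was 72 (95% interval 12.8 to 2855), and *Clu* rose by 3.92 ± 0.31 from low levels. *Gja1* (104, 104 and 95.6 CPM in NPC; 243, 289 and 227 CPM in NSC) and *Aldh1l1* rose too, by 1.32 ± 0.12 and 1.68 ± 0.45, so that several astrocyte genes ran against most of the list. In bulk RNA, fewer cells of a type and less RNA in each cell cannot be told apart.

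Genes of the oligodendrocyte lineage differed more in level than in number. Of 11 tested, 5 were higher and 5 lower (median 0.19), beside 44.4% and 33.7% of all genes, and leaving out NSC replicate 2 gave 6 higher and 5 lower (median 0.59). The summed level fell from 2598, 2858 and 2753 CPM in NPC to 150, 135 and 147 CPM in NSC. *Olig1*, a basic helix-loop-helix factor of this lineage, was the most abundant gene per kb and fell from 1743, 1794 and 1735 CPM to 4.34, 5.84 and 4.63 CPM. *Olig2* fell from 650, 728 and 673 CPM to 24.2, 32.6 and 28.2 CPM. The NPC values were the higher ones without overlap, and the log2 fold changes were -8.48 ± 0.13 and -4.60 ± 0.32 (adjusted p 3.53e-14 and 1.62e-08, edgeR quasi-likelihood test, Benjamini-Hochberg). The membrane protein gene *Lhfpl3* fell by 5.73 ± 0.42. Genes of myelinating cells varied in NPC. *Mbp* was nearly absent (0.418, 0.14 and 0.626 CPM), *Cnp* had 73.8, 72.1 and 67.8 CPM and fell to 19.3, 20.4 and 19.2 CPM in NSC, and *Mog*, *Mag*, *Cldn11* and *Sox10* had too few counts to be tested. *Mbp* (25.2, 19.3 and 24 CPM) and *Nkx2-2* (21.2, 35.2 and 18.4 CPM), which are also transcribed outside this lineage, were instead higher in NSC. *Egfr*, the receptor for the EGF in the NPC medium, fell from 401, 408 and 374 CPM to 21.2, 15.4 and 17.9 CPM (log2 fold change -4.44 ± 0.26).

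**Figure D3:**
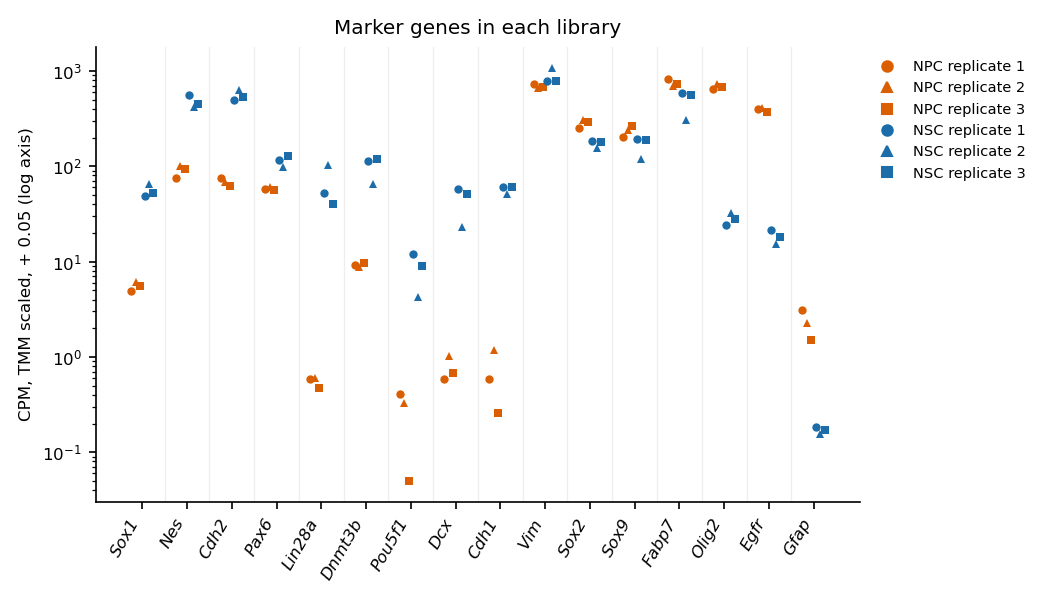
Marker genes in the 6 libraries (vertical axis, TMM-scaled CPM plus 0.05 on a log scale), with NPC in orange, NSC in blue and a symbol for each replicate. *Sox1*, *Nes*, *Lin28a* and *Cdh1* were higher and *Olig2*, *Egfr* and *Gfap* lower in NSC, whereas *Sox2* and *Fabp7* differed little on this scale.

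Neuronal genes were higher in NSC. Of 26 tested, 20 were higher and 3 lower, with a median of 4.39 (3.29 with genes at the floor set at the bound) and summed levels of 547, 562 and 594 CPM in NPC and 1529, 1300 and 1702 CPM in NSC. The tubulin gene *Tubb3*, the most abundant per kb, rose from 6.09, 4.6 and 5.43 CPM to 262, 235 and 263 CPM. *Dcx*, for a microtubule-binding protein of migrating neurons, rose from 0.537, 0.977 and 0.626 CPM to 57.5, 22.8 and 50.7 CPM. NSC were the higher group in every library, and the log2 fold changes were 5.52 ± 0.19 and 6.01 ± 0.51 (adjusted p 2.42e-11 and 1.31e-07, edgeR quasi-likelihood test, Benjamini-Hochberg). The neurofilament gene *Nefl* rose by 8.13 ± 0.29 and *Stmn2* by 7.51 ± 0.22. The proneural gene *Neurog1* had 1, 1 and 1 counts in NPC and 834, 511 and 703 in NSC, a ratio of 184 (95% interval 62.9 to 894). *Slc17a6*, for the vesicular glutamate transporter of excitatory neurons, had no count in NPC and 165, 22 and 153 counts in NSC, at least 7.45-fold more. *Map2* (454, 459 and 480 CPM in NPC; 110, 51.6 and 108 CPM in NSC) and *Syt1* were lower in NSC, so the list did not move as a whole. Whether neurons were present in the unsorted NSC cultures was not tested.

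Genes of the pluripotent epiblast were also detected in NSC. Of 17 tested, 16 were higher and 1 lower (median 4.12; 4.04 with genes at the floor set at the bound), and the summed level was 63.3, 69.5 and 79.8 CPM in NPC and 315, 147 and 301 CPM in NSC. *Dppa5a* was the most abundant per kb (3.22, 3.63 and 3.55 CPM in NPC; 82.4, 24.4 and 71.1 CPM in NSC). *Pou5f1*, which encodes Oct4, had 6, 2 and 0 counts in NPC and 12, 4.21 and 8.84 CPM in NSC, a log2 fold change of 4.90 ± 0.60. For *Tdgf1*, a co-receptor gene of the epiblast, NPC were at the floor (3, 2 and 0 counts) and NSC had 626, 95 and 444 counts, a ratio of 62.8 (95% interval 26.9 to 194). The corresponding ratio for *Dppa2* was 51 (95% interval 19.8 to 188), and only *Klf4* fell (log2 fold change -1.59 ± 0.28). Replicate 2 held the least of these transcripts among the NSC libraries, and without it 16 genes were still higher and 1 lower. Whether undifferentiated cells persisted in the NSC cultures was not tested.

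Markers of other lineages were low in both groups, with a few exceptions. Of 11 genes of mesoderm and endoderm tested, 9 were higher and 1 lower in NSC (median 3.95, but 0.88 at the bound), with summed levels of 23.8, 30 and 23.1 CPM in NPC and 49.4, 62.7 and 54.7 CPM in NSC. *Foxa2*, which also marks the floor plate, was the most abundant per kb (2.86, 3.35 and 2.3 CPM in NPC; 27.5, 47.1 and 28.2 CPM in NSC). *Gata4* fell by 2.23 ± 0.26, *Hand2* was at least 1.41-fold higher, and *Mesp1*, *Afp* and *Ttr* had no count in NPC and too few in NSC to be tested. Of 11 genes of surface ectoderm, 9 were tested and higher (median 5.30; 4.39 at the bound), with 3.11, 3.63 and 3.24 CPM in NPC and 157, 249 and 176 CPM in NSC in sum. The keratin genes *Krt18* (58.1, 99.6 and 65.8 CPM in NSC) and *Krt8* (62.6, 113 and 70.5 CPM) made up most of this sum. *Trp63*, specific to stratified epithelium, had no count in NPC and only 80, 46 and 57 in NSC (at least 4.18-fold). *Krt5* and *Krt14* had too few counts to be tested. Whether cells of these lineages were present was not tested.

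Of 11 genes of endothelial and mural cells 9 could be tested, and these were higher in NSC (median 5.20; 2.65 at the bound), with summed levels of 5.07, 4.71 and 2.23 CPM in NPC and 200, 920 and 205 CPM in NSC. Most of this sum, and its excess in replicate 2, was *Acta2*. NPC were at the floor in 7 of the 11, so most could enter the test only through their counts in other groups, and *Tie1* and *Emcn* had too few to be tested. *Flt1* and *Pdgfrb* were at the floor in NPC, with ratios of 153 (95% interval 52.4 to 745) and 156 (95% interval 61 to 575). Of 13 genes of neural crest and mesenchyme, 10 were higher and 3 lower (median 4.35; 2.78 at the bound), yet their sum was larger in NPC (308, 353 and 345 CPM) than in NSC (207, 197 and 206 CPM) because of *Ets1*, which fell by 2.59 ± 0.29. Among those with at least 10 counts in all 6 libraries, 1 was higher and 3 were lower. *Tfap2a* also fell, whereas *Tfap2b* (ratio 125, 95% interval 48.9 to 461) and *Msx2* (ratio 200, 95% interval 35.7 to 7894) were near 0 in NPC. Of 10 haematopoietic and microglial genes only *Itgam* and *Cd68* could be tested, with 1 higher and 1 lower (median 1.24; 0.00 at the bound), and the list summed to at most 4.05 CPM in any library. The fall, that of *Cd68*, did not pass without NSC replicate 2. *C1qa* had no count in any of the 6 libraries. Whether mural or mesenchymal cells contributed to NSC was not tested.

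Homeobox genes of the brain regions changed in both directions. Of 22 regional factors from forebrain to hindbrain tested, 14 were higher and 4 lower in NSC (median 3.16; 1.44 at the bound), with summed levels of 91, 103 and 99.6 CPM in NPC and 505, 416 and 551 CPM in NSC. *Irx3*, expressed in caudal neural plate, was the most abundant per kb and rose from 12.7, 13.1 and 12.7 CPM to 177, 166 and 174 CPM. In contrast, *Emx2*, a gene of dorsal telencephalon, fell from 17.1, 17.3 and 20.2 CPM to 3.09, 1.59 and 1.8 CPM, and *En1*, of midbrain and anterior hindbrain, from 16.2, 18.8 and 16.1 CPM to 1.72, 3.28 and 2.56 CPM. The groups did not overlap for these genes, and the log2 fold changes were 3.74 ± 0.20, -3.05 ± 0.24 and -2.77 ± 0.26 (adjusted p 1.23e-09, 5.70e-08 and 3.55e-07, edgeR quasi-likelihood test, Benjamini-Hochberg). *Lhx5* had 1, 0 and 0 counts in NPC and 628, 211 and 492 in NSC (ratio 359, 95% interval 64.3 to 14190), and *Pax5*, of the midbrain-hindbrain boundary, was at least 3.7-fold higher. Among the genes with at least 10 counts in all 6 libraries, however, 3 of these factors were higher and 4 lower, so the excess of rises lay in genes nearly absent from NPC.

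The strongest rise among genes above the floor in both groups was that of *Dbx1*, a factor of interneuron progenitors of the neural tube, from 5, 3 and 0 counts in NPC to 4716, 2750 and 3624 in NSC (log2 fold change 8.51 ± 0.42). *Nkx6-2*, a ventral factor, rose by 7.92 ± 0.68. *Nkx2-9*, transcribed beside the floor plate, had 2, 0 and 0 counts in NPC and 1494, 2551 and 1100 in NSC, a ratio of 694 (95% interval 192 to 5731).

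Hox genes were divided. Of 29 tested, 18 were higher and 6 lower (median 2.09; 1.55 at the bound; without NSC replicate 2, 16 and 6 with a median of 1.57), and the summed level was nearly the same in NPC (182, 175 and 181 CPM) and NSC (197, 197 and 204 CPM). *Hoxa2*, the most abundant per kb, rose from 9.25, 7.39 and 9.6 CPM to 45.5, 39.5 and 45.1 CPM. *Hoxb1*, the gene of rhombomere 4, had 2, 0 and 2 counts in NPC and 683, 613 and 600 in NSC (ratio 128, 95% interval 49.8 to 470). *Hoxb6* and *Hoxc10* had no count in NPC and were at least 7.61-fold and 3.88-fold higher in NSC. Conversely, *Hoxd13*, normally restricted to the caudal end of the body, had 14.9, 14.1 and 15 CPM in NPC and 0.0895, 0.0345 and 0.061 CPM in NSC. This was a log2 fold change of -7.68 ± 0.31 (adjusted p 1.17e-10, edgeR quasi-likelihood test, Benjamini-Hochberg), and *Hoxa10* (-4.32 ± 0.54) and *Hoxa5* (-3.77 ± 0.18) fell as well. Neighbouring Hox genes overlap and share similar sequence, and how reads were assigned to them is not stated.

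Genes of epithelial junctions and polarity were higher in NSC almost throughout. Of 25 tested, 23 were higher and 0 lower (median 3.95; 2.67 at the bound), with summed levels of 568, 618 and 614 CPM in NPC and 1683, 1631 and 1733 CPM in NSC. *Cdh1*, which encodes E-cadherin and is usually lost when *Cdh2* is gained, had 0.537, 1.12 and 0.209 CPM in NPC and 60, 50.8 and 61 CPM in NSC. It was thus nearly absent from NPC and present in every NSC library beside *Cdh2* (log2 fold change 6.49 ± 0.36; adjusted p 2.02e-09, edgeR quasi-likelihood test, Benjamini-Hochberg). The claudin gene *Cldn6* had 2, 0 and 0 counts in NPC and 589, 564 and 516 in NSC (ratio 225, 95% interval 62.2 to 1860), and *Ocln*, for occludin, was at least 3.36-fold higher. The polarity gene *Llgl1*, the most abundant per kb, was substantial in NPC (129, 132 and 142 CPM) and higher in NSC (405, 398 and 420 CPM). Whether the same cells held both cadherins cannot be told from bulk RNA.

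Genes of the extracellular matrix changed in both directions. Of 30 tested, 23 were higher and 6 lower in NSC (median 4.24; 3.68 at the bound), and the summed level was 2297, 2752 and 2577 CPM in NPC and 7746, 3789 and 7442 CPM in NSC. Collagens accounted for much of the NSC level and for the gap to replicate 2, as *Col1a1* rose by 6.66 ± 0.69 and *Col3a1* by 7.13 ± 0.62 while both were lowest in that library. *Thbs1*, for thrombospondin, was even across the NSC libraries (271, 289 and 277 CPM) and nearly absent from NPC (1.67, 2.51 and 1.04 CPM), and *Sparc* was the most abundant per kb (125, 104 and 111 CPM in NPC; 540, 648 and 532 CPM in NSC). *Lama2* had no count in NPC and 325, 16 and 195 counts in NSC (at least 11.3-fold). Among the 6 lower members, *Bcan* and *Tnc* fell most. The proteoglycan gene *Bcan* fell from 593, 616 and 641 CPM to 2.44, 2.07 and 2.74 CPM and the tenascin gene *Tnc* from 873, 990 and 876 CPM to 83, 37.4 and 84 CPM. Their log2 fold changes were -7.99 ± 0.14 and -3.74 ± 0.26 (adjusted p 8.44e-14 and 1.54e-08, edgeR quasi-likelihood test, Benjamini-Hochberg). Without NSC replicate 2, 23 matrix genes were higher and 6 lower, with a median of 4.29.

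Signalling pathways differed in which ligands, receptors and targets were transcribed. Of 18 Notch pathway genes, 11 were higher and 7 lower (median 1.55), with sums of 1048, 1272 and 1173 CPM in NPC and 1428, 1096 and 1355 CPM in NSC. The receptor gene *Notch1* fell from 289, 371 and 336 CPM to 170, 65.5 and 119 CPM and the ligand gene *Jag1* from 257, 302 and 251 CPM to 135, 153 and 134 CPM. The ligand genes *Dll1* (65.9, 73 and 65.5 CPM; 197, 170 and 215 CPM) and *Jag2* and the effector gene *Hes5* (57, 60.8 and 62 CPM; 138, 83 and 155 CPM) were higher in NSC. The log2 fold changes were -1.49 ± 0.26 for *Notch1*, -0.94 ± 0.16 for *Jag1*, 1.51 ± 0.15 for *Dll1*, 3.72 ± 0.29 for *Jag2* and 1.07 ± 0.29 for *Hes5*. *Heyl* was at the floor in NPC (ratio 60, 95% interval 16.5 to 497).

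Of 24 FGF and EGF pathway genes, 9 were higher and 9 lower (median 0.07), beside 44.4% and 33.7% of all genes, and leaving out NSC replicate 2 gave 10 higher and 11 lower (median 0.17). Their sum fell from 2756, 3046 and 2861 CPM in NPC to 1592, 1535 and 1611 CPM in NSC. Most targets of FGF signalling in the list were lower, namely 6 of its 8 Etv, Spry and Dusp genes, which were grouped after their values were seen. *Etv5*, an Ets factor induced by FGF and the most abundant gene per kb, fell from 1040, 1085 and 1039 CPM to 176, 148 and 168 CPM, and the feedback inhibitor gene *Spry4* from 98.2, 101 and 98.1 CPM to 17.5, 14.3 and 18.2 CPM. Both were lower in every NSC library, with log2 fold changes of -2.68 ± 0.15 and -2.57 ± 0.16 (adjusted p 2.17e-09 and 6.58e-09, edgeR quasi-likelihood test, Benjamini-Hochberg). The phosphatase gene *Dusp4*, also a target, rose from 9.25, 10.7 and 10.6 CPM to 170, 148 and 171 CPM (log2 fold change 4.01 ± 0.17), and *Dusp6* did not pass. The ligand genes *Fgf15* (0, 1 and 1 counts in NPC; 1429, 680 and 1175 in NSC; ratio 443, 95% interval 123 to 3658) and *Fgf8* (ratio 55.6, 95% interval 9.86 to 2205) were seen almost only in NSC. As the NPC medium held bFGF and EGF, medium and cell stage cannot be told apart here.

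Of 29 Wnt pathway genes, 20 were higher and 4 lower (median 2.24; 2.13 at the bound), with sums of 523, 627 and 611 CPM in NPC and 2871, 3033 and 2937 CPM in NSC. Secreted inhibitors made up most of the rise. *Sfrp1* rose from 6.56, 7.39 and 7.1 CPM to 1073, 1406 and 1132 CPM and *Sfrp2*, the most abundant per kb, from 6.5, 6.42 and 6.68 CPM to 694, 691 and 665 CPM. Both were low in NPC without overlap, with log2 fold changes of 7.44 ± 0.28 and 6.71 ± 0.39. *Dkk3* was at the floor in NPC (ratio 185, 95% interval 79.2 to 570) and *Wnt3a* without a count (at least 4.38-fold). *Lgr5*, a receptor gene and Wnt target (66.4, 77.3 and 69.3 CPM in NPC; 17, 17.6 and 18.2 CPM in NSC), and the feedback gene *Nkd1* fell by 2.01 ± 0.16 and 1.26 ± 0.18.

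Hedgehog and BMP pathway genes were higher in 18 of 21 cases and lower in 1 (median 2.26; 2.25 at the bound), with sums of 540, 558 and 570 CPM in NPC and 1644, 1261 and 1498 CPM in NSC. The ligand gene *Shh* was nearly absent from NPC (3, 1 and 1 counts) and had 600, 819 and 518 counts in NSC, a ratio of 104 (95% interval 44.7 to 322). Its target gene *Gli1* (0.298, 0.419 and 0.209 CPM in NPC; 21, 28.7 and 21.6 CPM in NSC) was higher in each NSC library, with a log2 fold change of 6.21 ± 0.30. Among the Id genes, which respond to BMP, *Id2* was the most abundant per kb (184, 149 and 158 CPM; 289, 210 and 282 CPM), while *Id4* rose most strongly, from 5.85, 6.7 and 4.8 CPM to 114, 92.2 and 112 CPM. The BMP antagonist gene *Grem1* had no count in NPC and 80, 8 and 59 counts in NSC, at least 3.16-fold more on the mean. In NSC replicate 2, at 0.276 CPM, it lay below the NPC floor of 0.408 CPM. The pseudoreceptor gene *Bambi* was slightly lower in NSC (log2 fold change -0.34 ± 0.15), but fell short of the threshold in 5 of the settings tried.

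Genes of retinoic acid transport and turnover showed a large difference. Of 14 tested, 13 were higher and 1 lower (median 5.73; 4.38 at the bound), and the sum was 43.2, 48.4 and 49 CPM in NPC and 1377, 1604 and 1316 CPM in NSC. *Crabp1*, for a cellular binding protein of retinoic acid, rose from 2.27, 2.79 and 3.13 CPM to 519, 849 and 471 CPM. *Cyp26b1*, for an enzyme that degrades retinoic acid, rose from 0.597, 0.698 and 0.417 CPM to 201, 113 and 186 CPM. NPC were low in both genes, and the log2 fold changes were 7.89 ± 0.48 and 8.13 ± 0.53 (adjusted p 4.96e-09 and 1.01e-08, edgeR quasi-likelihood test, Benjamini-Hochberg). Only *Aldh1a1* fell (log2 fold change -1.84 ± 0.59), at low levels in both groups. Whether retinoic acid was present in the cultures was not measured.

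Imprinted genes were higher in 20 of 23 cases and lower in 2 (median 3.98; 3.66 at the bound), with sums of 609, 620 and 631 CPM in NPC and 6065, 6782 and 5894 CPM in NSC. *Nnat*, for a membrane proteolipid of developing brain, and *Mest* (149, 138 and 145 CPM in NPC; 1866, 3182 and 1793 CPM in NSC) held most of the NSC level. The rise of *Nnat*, from 8.23, 9.07 and 8.56 CPM to 1686, 1452 and 1608 CPM, was among the largest in CPM per kb of exon. *Grb10*, an adaptor gene that restrains growth, had 3, 3 and 0 counts in NPC and 2571, 717 and 1671 in NSC (ratio 223, 95% interval 102 to 608), and *Mirg*, a noncoding gene of the imprinted cluster on chromosome 12, had no count in NPC (at least 11.5-fold). *Sgce* and *Airn* fell, by 0.71 ± 0.15 and 0.92 ± 0.20. Both parental alleles are counted together in these data, so that a change of imprint could not be examined.

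Among 8 enzymes of DNA methylation, 6 were higher and 2 lower (median 1.14), with sums of 430, 559 and 528 CPM in NPC and 1345, 1064 and 1316 CPM in NSC. *Dnmt3b*, a de novo methyltransferase gene of the early embryo, rose from 9.19, 8.79 and 9.6 CPM to 114, 65.5 and 119 CPM. *Uhrf1*, needed for maintenance methylation and the most abundant per kb, rose from 62.4, 70.9 and 70.8 CPM to 347, 340 and 322 CPM, and *Dnmt1* from 192, 232 and 213 CPM to 492, 430 and 498 CPM. All of these values were higher in NSC, with log2 fold changes of 3.44 ± 0.34, 2.31 ± 0.08 and 1.16 ± 0.10. The falls of the demethylase genes *Tet2* (-0.44 ± 0.22) and *Tet3* (-0.49 ± 0.21) were small and did not pass without NSC replicate 2. Germline genes, many of them silenced by methylation, were scarcely expressed: of 14 tested, 11 were higher and 2 lower in NSC (median 3.17; 0.51 at the bound), with sums of 7.25, 6.73 and 9.11 CPM in NPC and 23.6, 9.47 and 23.6 CPM in NSC. *Tex19.1* was the most abundant per kb, with 2, 1 and 0 counts in NPC and 331, 67 and 232 in NSC (ratio 56.6, 95% interval 19.3 to 275), whereas *Tex101* and *Brdt* fell. Among germline genes with at least 10 counts in all 6 libraries, 0 were higher and 1 lower.

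Of 20 genes of antigen presentation and interferon response, 17 were higher and 1 lower (median 4.16; 1.48 at the bound), with sums of 237, 227 and 231 CPM in NPC and 358, 323 and 351 CPM in NSC. *B2m*, the light chain gene of class I molecules and the most abundant per kb, was the gene that fell (148, 127 and 128 CPM; 63.2, 58.2 and 61.8 CPM; log2 fold change -1.14 ± 0.18). The heavy chain gene *H2-K1* rose from 0.835, 0.837 and 0.835 CPM to 42.9, 40.2 and 45.2 CPM, although its many close relatives make the assignment of reads uncertain. *Ifit1* had 1, 0 and 0 counts in NPC and 223, 20 and 102 in NSC, a ratio of 93.1 (95% interval 16.6 to 3686). *Oas1a* had no count in NPC and 42, 8 and 36 in NSC, at least 1.89-fold more on the mean. In NSC replicate 2 *Oas1a* lay below the NPC floor. Both genes were low in both groups and lowest in replicate 2 among NSC.

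Most genes of replication and mitosis were raised in NSC, by unequal amounts. Of 24 tested, 22 were higher and 1 lower, but only 3 over 4-fold, with a median of 0.76 and sums of 4371, 4303 and 4127 CPM in NPC and 7877, 8136 and 8088 CPM in NSC. *Rrm2*, for a subunit of ribonucleotide reductase and the most abundant per kb, had 320, 295 and 282 CPM in NPC and 796, 925 and 793 CPM in NSC. *Mki67* had 105, 111 and 109 CPM in NPC and 285, 223 and 290 CPM in NSC. Both were expressed in each library and higher in NSC, by 1.49 ± 0.09 and 1.30 ± 0.10 (adjusted p 6.54e-09 and 6.76e-08, edgeR quasi-likelihood test, Benjamini-Hochberg). The cyclin genes *Ccne1* and *Ccnb2* rose most, by 2.74 ± 0.15 and 2.49 ± 0.10, and the kinase gene *Aurka* fell by 0.35 ± 0.09. Cell cycle time was not measured.

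Regulators of the G1 phase were mostly lower. Of 10 D cyclins and CDK inhibitors, 2 were higher and 7 lower (median -0.90), with sums of 1537, 1561 and 1570 CPM in NPC and 1117, 1536 and 1106 CPM in NSC. *Cdkn2a*, which is induced in long-term culture, fell from 39.7, 35.7 and 30.9 CPM to 1.97, 3.52 and 2.22 CPM and *Cdkn2c* from 50.8, 45.1 and 49.9 CPM to 5.66, 3.69 and 5.61 CPM. The groups did not overlap, and the log2 fold changes were -3.81 ± 0.22 and -3.28 ± 0.24. *Cdkn1c* (30.5, 26.4 and 25.9 CPM in NPC; 126, 104 and 129 CPM in NSC) and *Ccnd3* rose, and *Cdkn1a*, the most abundant per kb, did not pass with all libraries (327, 320 and 318 CPM; 230, 415 and 205 CPM), as NSC replicate 2 lay above NPC and the other NSC libraries below.

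The amino acid and integrated stress response stood out among the falls. Of 14 genes, 0 were higher and 13 lower, 9 of them over 4-fold, with a median of -2.70 and sums of 8138, 7988 and 8070 CPM in NPC and 1582, 1767 and 1544 CPM in NSC. *Trib3*, for a pseudokinase induced by ATF4 and CHOP, fell from 426, 505 and 521 CPM to 7.45, 4.52 and 7.77 CPM. *Chac1*, for an enzyme that degrades glutathione, fell from 117, 98.4 and 99.1 CPM to 4.07, 2.83 and 3.96 CPM. NPC held the higher values without overlap, and the log2 fold changes were -6.19 ± 0.25 and -4.85 ± 0.18 (adjusted p 1.02e-10 and 5.09e-11, edgeR quasi-likelihood test, Benjamini-Hochberg). *Phgdh*, for the enzyme that opens serine synthesis, was the most abundant per kb (1570, 1369 and 1400 CPM in NPC; 228, 236 and 213 CPM in NSC), and the amino acid transporter gene *Slc7a5* fell from 1929, 1947 and 1850 CPM to 226, 249 and 200 CPM. *Ddit3* (-4.05 ± 0.14) and *Asns* (-2.72 ± 0.11) fell as well. The cystine transporter gene *Slc7a11* fell by only 0.55 ± 0.15, and *Atf3* (60.6, 64.6 and 65.9 CPM; 9.69, 21.8 and 8.63 CPM) by 2.26 ± 0.30. Whether this response came from the medium, from handling or from the cell stage was not tested.

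Several of these genes carry the site to which ATF4 and C/EBP proteins bind, TGATGNAA close to their starts. The motif was chosen after the falls had been seen, and a match is given as a description only. It was found on either strand in 5 of the 15 promoters available for the list, spanning 250 bases before to 50 after the start, against 3.97% (1304 of 32851) of all promoters of the reference, 2.3% (351 of 15254) of those of tested genes, 4.6% of those of genes over 4-fold lower and 2.92% of those of genes over 4-fold higher. These were the promoters of *Atf3*, *Chac1*, *Slc7a11*, *Asns* and *Trib3*. The sequences of *Atf3* (chr1:191183354-191183553, minus strand), *Chac1* (chr2:119351022-119351221, plus strand) and *Slc7a11* (chr3:50443634-50443833, minus strand) are from RefSeq, build GRCm38.p6, and show 200 bases that end 20 bases before the start, with each match in capitals.
Atf3: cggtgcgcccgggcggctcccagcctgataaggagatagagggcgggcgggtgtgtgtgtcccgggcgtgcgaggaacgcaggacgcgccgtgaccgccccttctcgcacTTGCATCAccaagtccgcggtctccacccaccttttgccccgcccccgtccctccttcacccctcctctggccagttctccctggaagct
Chac1: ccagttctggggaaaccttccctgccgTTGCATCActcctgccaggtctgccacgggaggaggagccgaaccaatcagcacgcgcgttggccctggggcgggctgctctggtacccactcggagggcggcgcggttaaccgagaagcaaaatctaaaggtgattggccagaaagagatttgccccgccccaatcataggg
Slc7a11: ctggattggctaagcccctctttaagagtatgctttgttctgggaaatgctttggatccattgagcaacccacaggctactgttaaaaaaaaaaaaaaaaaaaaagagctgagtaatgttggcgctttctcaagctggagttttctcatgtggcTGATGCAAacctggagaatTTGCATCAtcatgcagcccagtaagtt
The match in *Atf3* begins 110 bases before the start and that in *Chac1* 193 bases, whereas *Slc7a11* holds a match in each orientation, at 66 and 47 bases.

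Energy and lipid metabolism changed less. Of 20 genes of glycolysis and hypoxia, 13 were higher and 3 lower (median 0.50), with sums of 5383, 5357 and 5439 CPM in NPC and 9124, 9185 and 9164 CPM in NSC. *Pkm*, the most abundant per kb, rose from 1369, 1359 and 1381 CPM to 2705, 2747 and 2684 CPM and *Eno1* from 656, 613 and 618 CPM to 1437, 1867 and 1381 CPM. The glucose and lactate transporter genes *Slc2a3* (log2 fold change 3.91 ± 0.23), *Slc2a1* (3.26 ± 0.10) and *Slc16a3* (4.79 ± 0.30) rose more steeply than the enzymes. *Vegfa*, a target of hypoxia and of ATF4, moved against them, from 764, 829 and 871 CPM to 77.3, 93.1 and 80 CPM, and fell by 3.30 ± 0.10 (adjusted p 1.11e-11, edgeR quasi-likelihood test, Benjamini-Hochberg). Of 19 genes of sterol synthesis, 16 were higher and 3 lower (median 0.69), with sums of 3141, 3128 and 3008 CPM in NPC and 4813, 4866 and 4844 CPM in NSC. *Hmgcs1*, the most abundant per kb, rose by 1.37 ± 0.08, while *Sqle* fell by 0.68 ± 0.09.

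Transcripts of cytoplasmic ribosomal proteins and of the mitochondrial genome were lower in NSC as a share of the RNA. Of 82 cytoplasmic ribosomal protein genes, 76 were lower and 3 higher (median -1.0), and the sum was 27368, 24985 and 26899 CPM in NPC and 13848, 15611 and 12932 CPM in NSC. *Rpl4*, the most abundant per kb, fell from 1522, 1334 and 1373 CPM to 849, 985 and 820 CPM, and *Rpl8* from 1081, 939 and 1003 CPM to 249, 301 and 227 CPM. Their log2 fold changes of -0.67 ± 0.11 and -1.96 ± 0.11 span much of the range of this list. The genes that rose were the paralogues *Rps4l* (1.49, 1.26 and 0.835 CPM in NPC; 59.3, 55.9 and 55.9 CPM in NSC), *Rpl10l* (ratio 30.2, 95% interval 8.27 to 251) and *Rpl39l* (ratio 12.5, 95% interval 3.38 to 105), whose reads may be shared with close relatives. All 10 tested protein genes of the mitochondrial genome were lower (median -1.37), with sums of 8918, 7831 and 8568 CPM in NPC and 3300, 4288 and 3669 CPM in NSC, *mt-Cytb* being the most abundant per kb. Mitochondrial genes held 1.29, 1.17 and 1.27% of the counts in NPC and 0.429, 0.555 and 0.464% in NSC. Of 8 immediate early genes, which respond to handling, 5 were higher and 1 lower (median 0.52). Their sums were 732, 784 and 823 CPM in NPC and 1157, 936 and 1046 CPM in NSC. *Ier2* was the most abundant per kb and *Fosb* rose most (log2 fold change 2.01 ± 0.22), while *Jun* fell by 0.68 ± 0.16. Whether RNA quality differed between the groups was not tested.

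**Figure D4:**
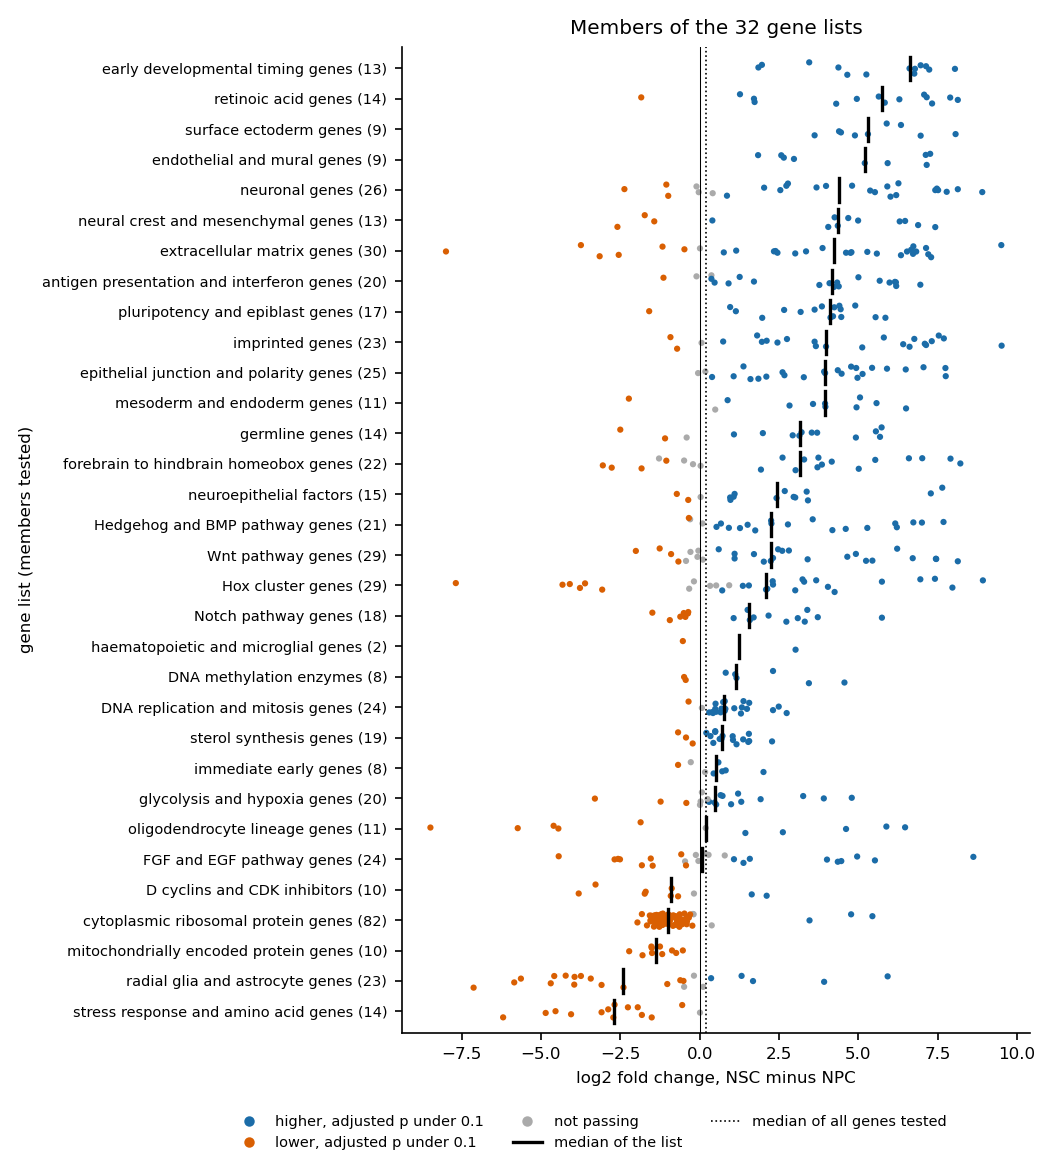
Log2 fold change of NSC over NPC (horizontal axis) for the tested members of the 32 lists (vertical axis, ordered by median), with members that passed in blue or orange, others in grey and the median of each list as a bar. Medians ran from -2.70 in the stress response to 6.61 in early timing genes, beside a dotted line at 0.20 for all genes.

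Outside the lists, the strongest changes named further genes. Above the floor in both groups, the largest falls were those of *Cox6a2* (38.8, 34.3 and 39.2 CPM in NPC; 0.0895, 0.104 and 0.0305 CPM in NSC), *Bcas1* (175, 152 and 162 CPM; 0.425, 0.38 and 0.366 CPM) and *Thrsp* (108, 106 and 97.3 CPM; 0.268, 0.104 and 0.366 CPM). These genes, for a cytochrome oxidase subunit of muscle, a protein of early oligodendrocytes and a regulator of lipid synthesis, were all but absent from NSC, with log2 fold changes of -8.85 ± 0.32, -8.67 ± 0.25 and -8.65 ± 0.22. The glial adhesion gene *Hepacam*, the glutamate receptor gene *Grm5* and the potassium channel gene *Kcnn4* followed, with log2 fold changes of -8.44 ± 0.42, -8.11 ± 0.33 and -8.09 ± 0.27. Among the largest rises was *Zfp536*, for a zinc finger protein that restrains neuronal differentiation (log2 fold change 8.40 ± 0.46). *Atxn7l3b* rose as well, by 8.16 ± 0.23.

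With NPC at the floor, *St18* (3, 1 and 2 counts in NPC; 1867, 1038 and 1524 in NSC; ratio 199, 95% interval 91.4 to 543), *Svop* (ratio 190, 95% interval 92.1 to 473), *Ddit4l* (ratio 272, 95% interval 106 to 998) and *Serinc2* (ratio 228, 95% interval 97.7 to 703) had the highest NSC levels besides *Nkx2-9* and *Grb10*. With NSC at the floor, *Scrg1*, for a small secreted protein of neural tissue, had 113, 41 and 25 counts in NPC and 0, 0 and 1 in NSC (ratio 664, 95% interval 118 to 26358). *Cd163*, known as a receptor gene of macrophages, had 130, 52 and 39 counts in NPC and 2, 0 and 3 in NSC (ratio 164, 95% interval 69.2 to 510), although the microglial genes listed above were near 0 in both groups. *Cyp3a63-ps* and *Gm29460* had no count in NSC and were at least 61.9-fold and 41.8-fold higher in NPC. By difference in CPM per kb, *Nnat*, *Crabp1*, *Mest*, *Mdk*, *Igdcc3* and *Sfrp2* rose most. *Mdk*, for a heparin-binding growth factor, rose from 3.16, 3.35 and 3.55 CPM to 518, 622 and 522 CPM, and *Igdcc3*, for a receptor of the immunoglobulin family, from 6.56, 6.28 and 7.72 CPM to 1248, 1339 and 1351 CPM. Among the falls, *Ckb*, for the brain creatine kinase, dropped from 13831, 12587 and 12641 CPM to 983, 1366 and 969 CPM (log2 fold change -3.56 ± 0.17). Others with large falls on this measure, *Gm23935*, *Gm24270*, *Gm15564*, *Lars2* and *mt-Rnr2*, are a ribosomal RNA of the mitochondrion and loci whose reads may come from elsewhere, as strand and counting are not stated.

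By type of gene, protein-coding genes made up 91.1% of those over 4-fold higher (2963 of 14584 tested, 20.3%) and 74.4% of those over 4-fold lower (745, 5.11%). Loci of the annotation class TEC, which have thin support as genes, gave 44 higher and 71 lower of 385, and antisense genes 40 and 53 of 388. Both classes thus held more lower than higher genes. Intergenic noncoding genes gave 84 and 44 of 392. The median exon length of the protein-coding genes was 3995 bases among those higher, 4085 among those lower and 4413 among all tested, so gene length separated the rises from the falls little.

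The comparison also differed by chromosome. For genes with a mean log2 CPM above 3, the median difference from the NPC mean was taken for each chromosome and library, relative to all genes. Genes of chromosome 15 lay lower in NSC, at -0.68, -0.65 and -0.73 in the 3 libraries, with 265 of 384 genes (69%) lower and 77 (20.1%) higher. Those of chromosome 8, which carries *Sox1*, lay higher, at 0.56, 0.61 and 0.58, with 344 of 546 genes (63%) higher and 105 (19.2%) lower. Chromosome 14 lay higher too, at 0.49, 0.49 and 0.52. The NPC libraries stayed between -0.01 and 0.01 for these chromosomes, and NSC replicate 2 did not stand apart. Windows of 10 Mb were compared where they held at least 15 such genes, which leaves gaps. Of these, 8 of 8 lay below 0 on chromosome 15 (-0.38 or lower), 12 of 12 above 0 on chromosome 8 (0.43 to 0.70) and 5 of 6 above 0 on chromosome 14. Chromosome 19 was shifted by 0.32, with 6 of 6 windows above 0, and chromosome 1 by -0.30, with 13 of 14 windows below 0.

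The other groups of the series were set against the same NPC libraries and so share these controls. Chromosome 15 was at -0.71 in the sorted neural rosette cells and 0.12 in the *Sox1*-activated NPC, chromosome 8 at 0.48 and -0.01, and chromosome 14 at 0.53 and 0.16. With chromosomes 8, 14, 15 and 19 left out, 2676 genes were over 4-fold higher and 875 over 4-fold lower in NSC. Many changes described above lie on these chromosomes, *Slc1a3* and *Krt18* on chromosome 15 and *Irx3*, *Sfrp1* and *Cdh1* on chromosome 8 among them, with fold changes far beyond the shift of their chromosome. Copy number was not measured, and whether the cultures differed in it was not tested.

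**Figure D5:**
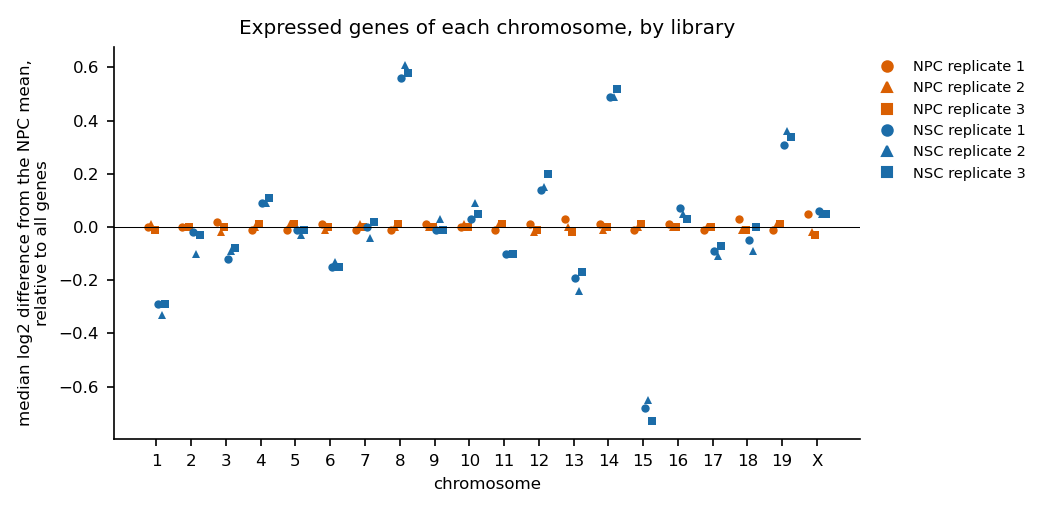
Median log2 difference from the NPC mean relative to all genes (vertical axis) for the expressed genes of each chromosome (horizontal axis), by library, with NPC in orange and NSC in blue. The 3 NSC libraries lay together below 0 for chromosome 15 (-0.65 to -0.73) and above 0 for chromosome 8 (0.56 to 0.61).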

How the data were processed

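The authors deposited 1 table with the read count of 45706 genes in 12 libraries, of which 45143 have a symbol, and 0.124% of counts fell on genes without one. The submitters' processing notes name STAR 2.6, RSEM 1.1.14 and build mm10 without giving the role of each, and annotation version and strand are not given in the sources used here. Columns were matched to samples by name. Genes passing filterByExpr over the 4 groups (17003) were scaled with TMM and fitted over the 12 libraries with edgeR 4.0.16 in R 4.3.3, and NSC were tested against NPC with its quasi-likelihood test and Benjamini-Hochberg adjustment. A prior count of 0.125 entered log2 fold changes and of 2 log2 CPM. Tables were made with pandas 2.3.3 in Python 3.11.15, intervals with scipy 1.17.1 and plots with matplotlib 3.10.9. The steps were tested on simulated data.

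The 32 lists and the rule for naming genes were chosen with earlier results of these data known. The rule took the 8 largest rises and falls above the floor, the 6 most abundant genes at the floor of either group, the 6 largest rises and falls in CPM per kb, up to 5 members of each list, 17 markers, and the 6 genes of widest range in each group. 4 genes are not reported here. Intervals of ratios are exact binomial intervals on the summed counts, at 95%.

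Alternatives tried were DESeq2 1.42.0 (Wald test and size factors), upper-quartile scaling, other filters, prior count and thresholds, glmTreat, limma 3.58.1 voom with array weights, thinning, a replicate block, the 6 libraries alone, and leaving out each library. Promoter features were tabulated for rises and falls but not tested against each other, since only 70.7% of the higher genes, 62.6% of the lower and 70.5% of all tested had a promoter in the reference. Depth per library is given above, and gene lengths are summed exons of the reference annotation.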

Additional observations from a re-analysis of the deposited data

How the results depend on the processing

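The number of genes over 4-fold higher or lower depended most on how weak transcripts were treated. Of the 3252 higher and 1002 lower genes, a filter of at least 10 counts in all 6 libraries left 544 and 574, thinning every library to the smallest total left 1964 higher (750 lower), and a fold change over 2 in place of 4 gave 4894 and 2909. With glmTreat against a fold change of 2, 2211 were lower (4132 higher), and among genes with a mean log2 CPM above 5, chosen after seeing the data, 178 were higher and 229 lower. Also chosen after seeing the data were the fold change against the floor (2183 and 988) and leaving out chromosomes 8, 14, 15 and 19 (2676 and 875). All other settings, among them DESeq2 (3267 and 965), voom with array weights (3025 and 1009) and no filter on low counts (4201 and 1331), stayed within 1.5 times, and leaving out each replicate in turn gave 2970 to 3326 higher and 1004 to 1033 lower. Replicates of the same number were not treated as pairs, as no pairing is stated in the sources used here. Between groups, their deviations from the group means had correlations of -0.0472, -0.0404 and -0.0281. With 3 libraries per group these values do not decide whether the libraries were paired. Adding the number as a replicate block gave 3296 and 1011. Other scaling moved the median log2 fold change by 0.04. For the 220 genes examined singly, 3548 of 3632 values kept direction and side of the threshold, 67 were weaker, 17 stronger and 0 reversed, and 5 of 165 genes over 4-fold lost that size somewhere. *Vim* was weaker in 4 settings, *Fabp7* in 3, *Tet2* in 9, *Tet3* in 5, *Bambi* in 5 and *Cd68* in 12, while *Sox9* passed in 6 and *Dusp6* in 5. Of 1024 list counts, 66 changed by more than 1.5 times or to or from 0, 28 of them under the filter of 10 counts, which also turned the homeobox (3 higher, 4 lower), neural crest (1 and 3) and germline (0 and 1) lists. Chromosome values moved by at most 0.08.

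The data have limits that no setting removes. Each group has 3 libraries, NSC were sequenced more deeply, and stage and medium differ together, so that their parts cannot be told apart. Bulk counts do not show which cells carry a transcript, and these RNA libraries hold no measure of protein, chromatin or copy number. The paper examined protein and chromatin in other experiments, which were not used here.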
